A study of Homo sapiens with 90 samples.

Results

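The 8 genes SREBF1, SREBF2, SCAP, INSIG1, INSIG2, MYLIP, LRP8 and STARD4 belong to the sterol-sensing system of the cell, to lipoprotein uptake and its control, or to sterol transport. They were represented by 20 probe sets that carry only that gene symbol, of 54613 probe sets tested, and they are 8 of 19774 genes measured. The genes were chosen by their role and by the measured differences of each compound and dose from DMSO, so those differences are given as a description with standard errors and intervals, and no p. At 10 µM fenbuconazole LRP8 was 1.34-fold and STARD4 1.23-fold DMSO on their leading probe sets, the highest of the 20 probe sets at that dose. On the probe sets of the other 6 genes the differences at that dose lay between -0.28 and 0.28 on the log2 scale.

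The cells were HepG2, an established human liver tumour line, so a single tumour line stands for liver here. They were exposed for 24 h to fenbuconazole (a triazole fungicide), imazalil (an imidazole fungicide) or 2,4-D (2,4-dichlorophenoxyacetic acid, a herbicide), each at 9 doses between 0.001 and 10 µM with 3 arrays per dose. The controls received the DMSO vehicle alone, which the treated cells received as well, and the same 3 DMSO arrays served all 3 compounds. The labels do not say whether replicates were separate cultures, so the p-values below measure only the spread between these samples, which may be technical.

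SREBP1 and SREBP2, the products of SREBF1 and SREBF2, are transcription factors held in the membrane of the endoplasmic reticulum. When sterols are scarce, their escort SCAP carries them to the Golgi, where proteases release the active part, which then raises the genes of cholesterol synthesis, fatty acid synthesis and lipoprotein uptake. When sterols are plentiful, the INSIG proteins hold SCAP and the SREBPs back. In liver cells the pathway sets how much cholesterol is made and how much is taken up.

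The 250 bases upstream of the annotated start are shown for 3 of the genes because LRP8 and STARD4 stood highest at 10 µM fenbuconazole and because SREBF2, which encodes the factor itself, was the gene among the 8 with a match to the core of the sterol regulatory element. The sequences are those of RefSeq on GRCh38.p14, where all 8 genes were matched. Windows were searched on both strands for TCACNCCAC, a form of that core, for CCAAT, the site of the NFY factors, and for GGGCGG, the site of SP1. The printed windows lie at chr22:41832855-41833104 (plus strand) for SREBF2, chr1:53328071-53328320 (minus strand) for LRP8 and chr5:111512536-111512785 (minus strand) for STARD4. Each runs 5′ to 3′ toward the start, and capitals mark TCACNCCAC and CCAAT on either strand.
SREBF2: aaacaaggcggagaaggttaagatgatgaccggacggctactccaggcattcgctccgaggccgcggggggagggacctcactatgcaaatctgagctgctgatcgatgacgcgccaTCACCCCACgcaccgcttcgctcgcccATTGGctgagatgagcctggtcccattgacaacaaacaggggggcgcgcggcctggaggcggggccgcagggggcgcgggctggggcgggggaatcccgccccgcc
LRP8: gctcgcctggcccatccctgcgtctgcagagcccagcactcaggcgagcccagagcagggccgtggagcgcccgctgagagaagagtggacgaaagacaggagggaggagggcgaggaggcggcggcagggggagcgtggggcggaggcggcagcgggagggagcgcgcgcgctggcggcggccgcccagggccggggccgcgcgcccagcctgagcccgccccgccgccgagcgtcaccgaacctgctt
STARD4: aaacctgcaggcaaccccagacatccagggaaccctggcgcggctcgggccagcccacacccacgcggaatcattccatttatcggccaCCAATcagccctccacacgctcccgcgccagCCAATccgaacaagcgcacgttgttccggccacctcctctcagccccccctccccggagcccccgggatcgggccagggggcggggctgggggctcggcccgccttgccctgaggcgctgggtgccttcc

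In SREBF2 the core was read as TCACCCCAC, ending 125 bases upstream of the start, with a CCAAT on the other strand ending 102 bases upstream. TCACNCCAC was held by 1 of the 8 genes and by 0.883% of 35116 windows of the same length. CCAAT was held by 4 of the genes (SREBF2, INSIG1, MYLIP and STARD4), against 32.0% of windows, and GGGCGG by 8, against 42.6%. STARD4 held 2 CCAAT matches and LRP8 held neither TCACNCCAC nor CCAAT in its window. A match is a description of the letters and not a site shown to be used.

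The values were log2 intensities normalized by RMA within each compound's set of 30 arrays. The median of an array lay between 2.95 and 3.15 over the 3 sets. Markers of HepG2 cells were high with DMSO, from 10.07 for TTR to 13.07 for ALB among 9 measured genes. Markers of mesenchymal cells lay between 2.64 and 4.28, and markers of blood and endothelial cells between 2.59 and 3.66. The array codes in the labels run down as the dose runs up within each compound and replicate number, so dose and array order cannot be told apart. Within each replicate number the codes of a compound also form a block. Compound and array order therefore cannot be told apart either, which holds for the differences between compounds below.

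LRP8 encodes a lipoprotein receptor that binds particles carrying apolipoprotein E. Its leading probe set, 208433_PM_s_at, the one with the highest mean of its 3, read 6.785, 6.648 and 6.605 (log2 intensity) at 10 µM fenbuconazole, against 6.359, 6.272 and 6.154 with DMSO in the same set. All 3 fenbuconazole arrays lay above all 3 DMSO arrays, and the lowest of them was 6.605. The difference was 0.42 ± 0.08 (log2, SE, n = 3 per group, 95% interval 0.25 to 0.59), or 1.34-fold. RNA came from whole cultures, in which fewer cells of a kind and less RNA per cell cannot be told apart. By same-numbered arrays the LRP8 differences were 0.43, 0.38 and 0.45, but whether the replicate number pairs the arrays could not be settled.

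At 10 µM imazalil the same LRP8 probe set read 6.326, 6.349 and 6.221, against 6.062, 6.063 and 5.969 with DMSO in its set. These groups also did not overlap, and the difference was 0.27 ± 0.10 (interval 0.06 to 0.48, 1.20-fold). At 10 µM 2,4-D the LRP8 values were 6.277, 6.174 and 6.330, against 6.448, 6.308 and 6.258 with DMSO, and the groups overlapped, with a difference of -0.08 ± 0.08 (interval -0.23 to 0.08). The DMSO means of this probe set were 6.26, 6.03 and 6.34 in the fenbuconazole, imazalil and 2,4-D sets although the arrays were the same, so its levels are compared only within a set. Where the sets were normalized jointly and the copies of a DMSO array averaged, the LRP8 difference was 0.53 with fenbuconazole and 0.11 with imazalil.

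The other probe sets of LRP8 ran the same way with less precision. Probe set 228955_PM_at read 5.046, 5.290 and 5.396 at 10 µM fenbuconazole, against 4.946, 5.029 and 4.933 with DMSO, and all 3 treated arrays were higher, although the lowest exceeded the highest DMSO array by a small step. Its difference was 0.28 ± 0.15 (interval -0.04 to 0.59) with fenbuconazole, 0.17 ± 0.17 with imazalil and -0.14 ± 0.14 with 2,4-D. Probe set 205282_PM_at of LRP8 read 5.708, 5.833 and 6.027 at 10 µM fenbuconazole, against 5.821, 5.592 and 5.478 with DMSO, so its groups overlapped. For this probe set the differences were 0.23 ± 0.14, 0.26 ± 0.13 and -0.08 ± 0.15 in the same order of compounds, and the fenbuconazole value was 0.40 without replicate 1 and 0.06 without replicate 3. Over the 27 dose means the 3 LRP8 probe sets correlated pairwise at r between 0.12 and 0.49, a description of means that share the normalization of their set.

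**Figure D1:**
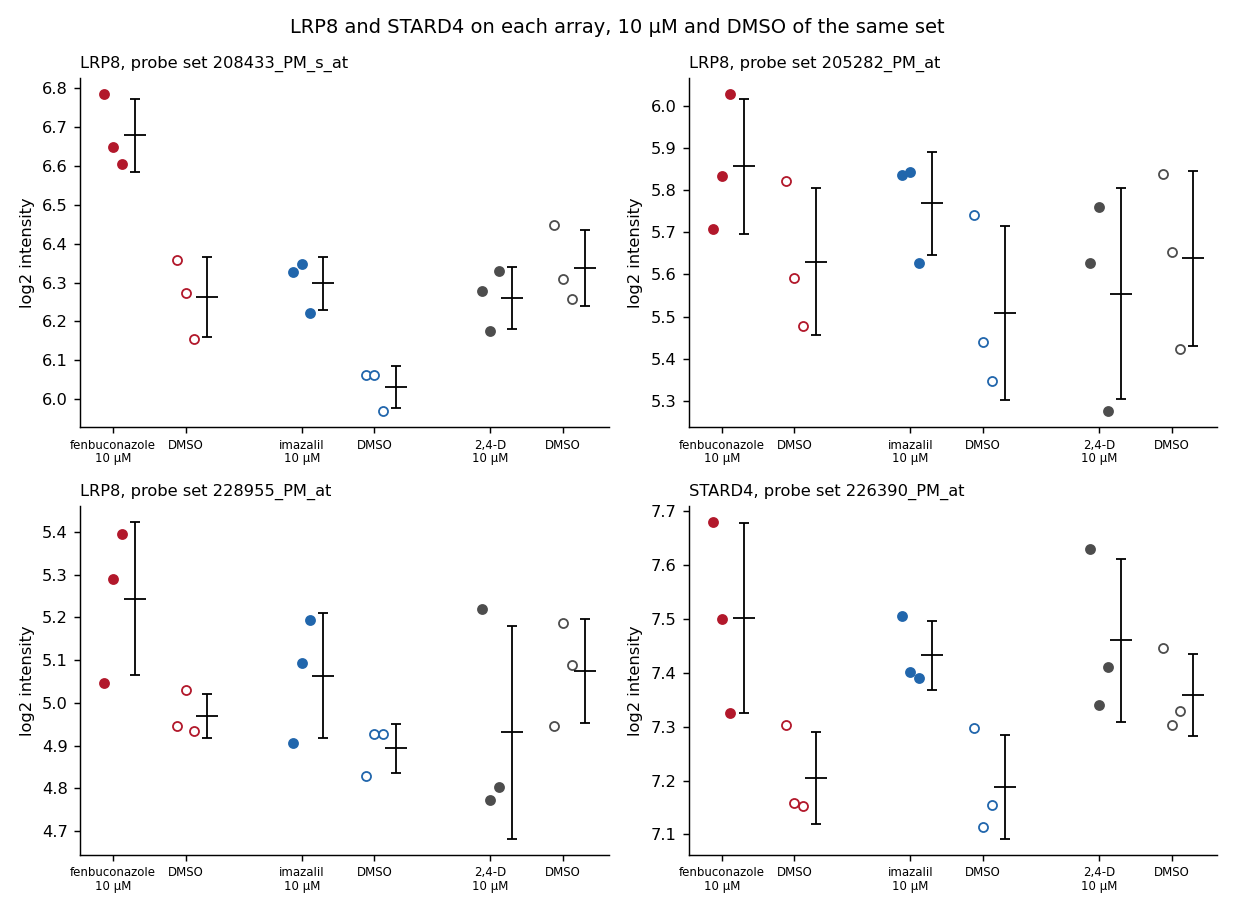
Log2 intensity of the 3 LRP8 probe sets and of STARD4 on each array, with 10 µM of a compound (filled points) left of DMSO of the same set (open points), and bars for mean ± SD (n = 3). For LRP8 208433_PM_s_at the fenbuconazole arrays lie at 6.605 and above and the DMSO arrays at 6.359 and below.

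The dose course of LRP8 is given for 208433_PM_s_at, and the other LRP8 probe sets did not share it. At 3 µM fenbuconazole 205282_PM_at differed from DMSO by -0.07. Probe set 228955_PM_at differed by 0.20 there and already by 0.21 at 0.1 µM. At 3 µM imazalil these probe sets differed by 0.01 and 0.003. With fenbuconazole, 208433_PM_s_at differed from DMSO by -0.05 to 0.14 at the doses up to 0.3 µM, by 0.02 at 1 µM, by 0.22 at 3 µM and by 0.42 at 10 µM (SE 0.08 at each dose). The LRP8 level at 10 µM (6.68 ± 0.09, SD) stood first, the arrays at 3 µM (6.433, 6.510 and 6.488) lay below all those at 10 µM and above all DMSO arrays, and the other means, in order of level from 6.40 ± 0.05 at 0.3 µM to 6.21 ± 0.04 at 0.01 µM with DMSO (6.26 ± 0.10) among them, each lay within the spread of the next. With imazalil the LRP8 differences were 0.05 at 1 µM, 0.19 at 3 µM and 0.27 at 10 µM, and between -0.07 and 0.12 at lower doses. With 2,4-D they lay between 0.01 and 0.15 at the 8 lower doses, above DMSO at 8 of them, and at -0.08 at 10 µM.

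STARD4 encodes a START domain protein that moves cholesterol between membranes. Its 1 probe set, 226390_PM_at, read 7.680, 7.500 and 7.326 at 10 µM fenbuconazole, against 7.303, 7.158 and 7.153 with DMSO. The treated arrays were all higher, but the lowest of them (7.326) was close to the highest DMSO array (7.303). The STARD4 difference was 0.30 ± 0.11 (interval 0.07 to 0.53), or 1.23-fold (1.05 to 1.44).

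With imazalil STARD4 read 7.506, 7.402 and 7.390 at 10 µM, against 7.297, 7.113 and 7.155 with DMSO, again without overlap, and the difference was 0.24 ± 0.14 (interval -0.03 to 0.52). With 2,4-D the STARD4 values of 7.630, 7.340 and 7.411 overlapped the DMSO values of 7.446, 7.303 and 7.329, and the difference was 0.10 ± 0.11. Over fenbuconazole doses STARD4 stood at 0.12 at 0.1 µM, 0.18 at 0.3 µM, 0.08 at 1 µM, 0.27 at 3 µM and 0.30 at 10 µM, and between -0.01 and 0.09 below. Imazalil gave STARD4 differences between -0.12 and 0.12 at the 8 lower doses, and only 10 µM lay outside that range. The dose means of LRP8 and STARD4 had the highest correlation among the 8 genes (r = 0.56 over 27 dose means), and the other pairs ran from -0.26 to 0.24.

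**Figure D2:**
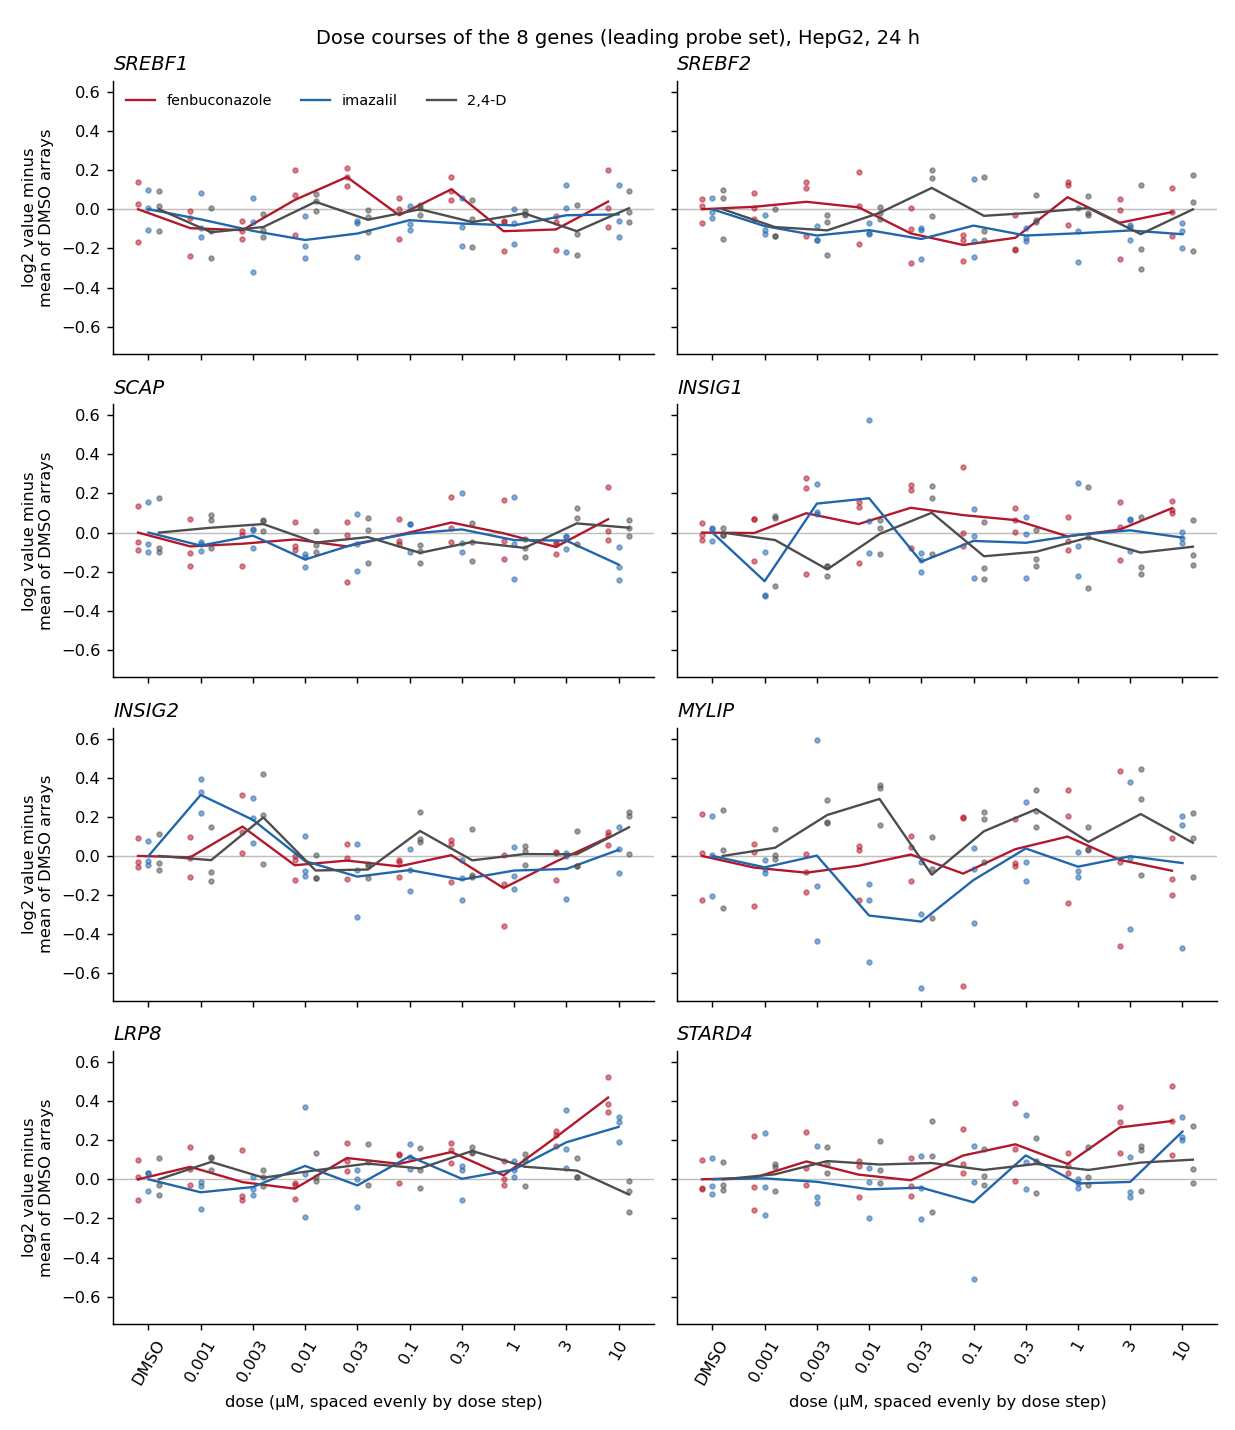
Log2 value minus the mean of the set's DMSO arrays for the leading probe set of each gene, against dose, with 1 point per array and lines through the means. LRP8 reaches 0.42 and STARD4 0.30 at 10 µM fenbuconazole, while the other 6 genes stay between -0.08 and 0.12 there.

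SREBF1 encodes SREBP1, the factor tied mainly to fatty acid synthesis. Probe set 202308_PM_at read 6.054, 6.152 and 6.349 at 10 µM fenbuconazole, against 6.172, 6.286 and 5.981 with DMSO, and the groups overlapped. Its SREBF1 differences were 0.04 ± 0.10 with fenbuconazole, -0.03 ± 0.11 with imazalil and 0.01 ± 0.08 with 2,4-D, and the fenbuconazole value was -0.13 without replicate 3. The dimmer SREBF1 probe set 1558875_PM_at gave -0.19 ± 0.12, 0.10 ± 0.11 and -0.23 ± 0.12, and it lay below the array median on some arrays of each set.

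SREBF2 encodes SREBP2, the factor tied mainly to cholesterol synthesis, and its 3 probe sets did not move as one. The leading SREBF2 probe set 201248_PM_s_at read 5.813, 5.568 and 5.688 at 10 µM fenbuconazole, against 5.634, 5.757 and 5.721 with DMSO, a difference of -0.01 ± 0.11. The groups overlapped, with the DMSO values inside the range of the treated ones. With imazalil the values of this SREBF2 probe set, 5.677, 5.636 and 5.550, all lay below the DMSO values of 5.702, 5.807 and 5.736. The difference was -0.13 ± 0.09, and at the 8 lower doses it lay between -0.15 and -0.08. Every dose is set against the same 3 DMSO arrays, so a step of the compound and high DMSO arrays cannot be told apart.

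Probe set 201247_PM_at of SREBF2 read 5.430, 5.467 and 5.306 at 10 µM fenbuconazole, against 4.961, 5.005 and 5.411 with DMSO. The difference was 0.28 ± 0.13 (interval 0.004 to 0.55), but 1 DMSO array stood high and the others low. The same probe set was above DMSO at all 9 fenbuconazole doses, by 0.03 to 0.38, and at all 9 imazalil doses, by 0.04 to 0.28. With 2,4-D it was above DMSO at 7 of the 8 lower doses and by 0.09 at 10 µM. All of these are set against the same 3 DMSO arrays. The difference was thus not graded with dose. The dimmest SREBF2 probe set, 242748_PM_at, read 4.005, 3.517 and 3.678 at 10 µM imazalil, against 4.042, 4.054 and 4.223 with DMSO, all 3 lower, with a difference of -0.37 ± 0.19 (interval -0.77 to 0.02). Over the 27 dose means the SREBF2 probe sets correlated pairwise at r from -0.01 to 0.09.

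SCAP, the escort that carries the SREBPs to the Golgi, read 7.473, 7.517 and 7.740 at 10 µM fenbuconazole, against 7.419, 7.645 and 7.462 with DMSO (difference 0.07 ± 0.10). With imazalil SCAP read 7.269, 7.435 and 7.333, against 7.412, 7.665 and 7.449 with DMSO (difference -0.16 ± 0.10, interval -0.37 to 0.04). With 2,4-D the SCAP difference was 0.03 ± 0.08. The groups overlapped with each compound.

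INSIG1 and INSIG2 encode the proteins that retain SCAP when sterols are plentiful. INSIG1, which is itself raised by SREBPs in many cells, was not well seen here, since 201626_PM_at and 201627_PM_s_at lay below the array median on 30 of 30 arrays of each set and 201625_PM_s_at on 16, 20 and 22 of 30 in the fenbuconazole, imazalil and 2,4-D sets. The leading INSIG1 probe set read 3.058, 3.103 and 3.045 at 10 µM fenbuconazole, against 2.931, 2.906 and 2.994 with DMSO, without overlap but at the level of the array medians, with a difference of 0.12 ± 0.12 (interval -0.13 to 0.38). At that level the size of a change in INSIG1 could not be measured.

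INSIG2 was bright, at 8.458, 8.406 and 8.475 at 10 µM fenbuconazole, against 8.441, 8.295 and 8.319 with DMSO (difference 0.09 ± 0.09). It differed from DMSO by 0.03 ± 0.10 at 10 µM imazalil and by 0.15 ± 0.10 at 10 µM 2,4-D. With imazalil INSIG2 stood highest at the lowest doses, by 0.31 at 0.001 µM and 0.18 at 0.003 µM, and between -0.12 and 0.03 at every higher dose.

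MYLIP encodes a ubiquitin ligase, induced by sterol-activated LXR receptors, that marks lipoprotein receptors for degradation. Its 6 probe sets differed from DMSO by -0.28 to 0.16 at 10 µM fenbuconazole, by -0.04 to 0.11 with imazalil and by -0.15 to 0.07 with 2,4-D, and the groups overlapped in each case. The leading MYLIP probe set 223130_PM_s_at read 4.725, 4.641 and 4.934 at 10 µM fenbuconazole, against 5.055, 4.616 and 4.855 with DMSO (difference -0.08 ± 0.20). MYLIP probe set 228097_PM_at lay below the array median on all 30 arrays of each set. Pairwise correlations of the MYLIP probe sets over the 27 dose means ran from -0.23 to 0.49.

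Over the 20 probe sets, 13 lay above DMSO at 10 µM fenbuconazole and 7 below, with a median of 0.07, against -3e-04 over all probe sets. Of all probe sets, 49.9% lay above DMSO. In limma 0 of 20 passed the adjusted threshold, where 0.00549% of all probe sets passed, and 3 had an unadjusted p under 0.05, against 4.36% of all. The 3 fenbuconazole arrays lay all above the DMSO arrays for 4 of 20 (LRP8 with 2 probe sets, STARD4 and INSIG1), against 4.7% of all probe sets, and all below for 0 of 20, against 4.24%. With imazalil 12 lay above DMSO (48.4% of all), 0 passed (0.0403%), 1 had an unadjusted p under 0.05 (5.11%), 2 were all above (5.49%) and 2, both of SREBF2, all below (6.18%). With 2,4-D 9 lay above DMSO (49.8% of all) and 11 below, 0 passed (0%), 0 had an unadjusted p under 0.05 (4.13%), and the arrays separated in 0 upward (3.71%) and 0 downward (3.53%). Because the genes were chosen by these differences, nothing is read from these counts.

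**Figure D3:**
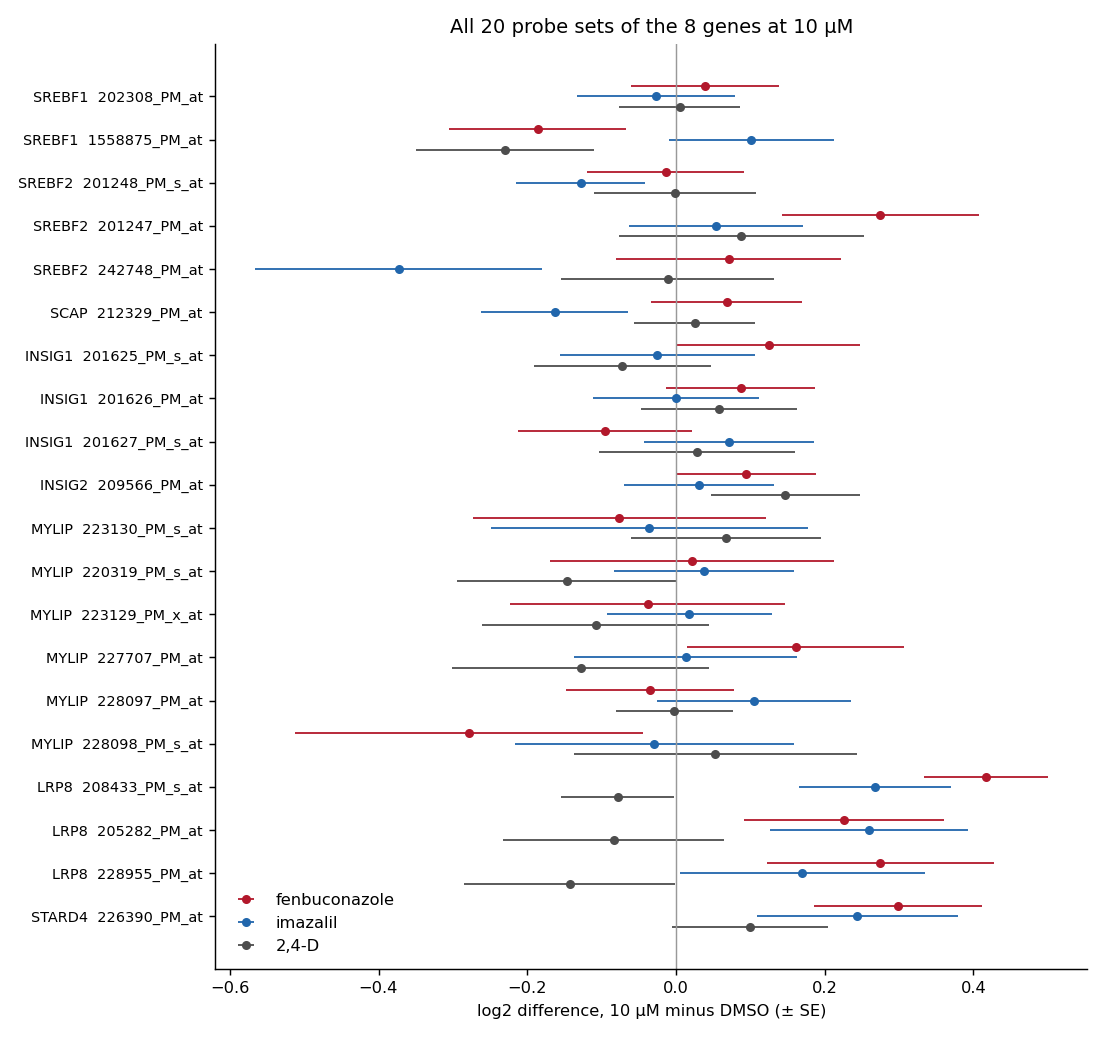
Log2 difference of 10 µM minus DMSO for all 20 probe sets, with bars of 1 standard error and a colour for each compound (n = 3 per group). The 3 LRP8 probe sets lie at 0.23 to 0.42 with fenbuconazole, at 0.17 to 0.27 with imazalil and at -0.14 to -0.08 with 2,4-D.

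To ask whether expression followed the dose without the DMSO arrays, a slope was fitted over the 27 treated arrays of each compound. The fit does not use the DMSO arrays, but it shares the treated arrays with the differences above. LRP8 had a slope of 0.08 ± 0.02 log2 per 10-fold dose of fenbuconazole on 208433_PM_s_at (interval 0.04 to 0.11, limma adjusted p = 0.313) and of 0.14 ± 0.03 on 228955_PM_at (0.07 to 0.21, adjusted p = 0.279), neither past the threshold over all probe sets. On 205282_PM_at the LRP8 slope was 0.01 ± 0.03 (-0.05 to 0.06, adjusted p = 0.99), with the 3 µM difference at -0.07. STARD4 had a slope of 0.07 ± 0.02 (0.02 to 0.11, adjusted p = 0.629). For 228955_PM_at part of the LRP8 slope lay at the low end, where it stood at -0.48 at 0.003 µM and -0.30 at 0.01 µM.

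With imazalil the LRP8 slope on 208433_PM_s_at was 0.07 ± 0.02 (interval 0.03 to 0.11, limma adjusted p = 0.376), while it was -0.01 ± 0.03 on 228955_PM_at (-0.07 to 0.06, adjusted p = 0.996) and 0.03 ± 0.02 on 205282_PM_at (-0.02 to 0.08, adjusted p = 0.954). INSIG2 had a slope of -0.07 ± 0.02 (-0.11 to -0.02, adjusted p = 0.631). Of the 20 probe sets, 0 passed with fenbuconazole (0.011% of all), 0 with imazalil (0.0256%) and 0 with 2,4-D (0%), and 4, 2 and 0 had an unadjusted p under 0.05, against 6.06%, 6% and 4.79% of all probe sets. The remaining fenbuconazole slope with an interval above 0 was that of SREBF2 on 242748_PM_at, 0.06 ± 0.03 (adjusted p = 0.803). None of the slopes therefore held over all probe sets in limma, with a lowest adjusted p of 0.279, 0.376 and 0.996 for the 3 compounds.

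The compounds were then set against each other at 10 µM, after the DMSO mean of each set had been subtracted. These differences are made of the same values by which the genes were chosen, so they are given with intervals as a description and with no p. The SE and intervals come from the treated arrays and leave out any error of the subtracted DMSO means, including that of separate normalization. LRP8 on 208433_PM_s_at stood 0.42 above DMSO with fenbuconazole and at -0.08 with 2,4-D, a difference of 0.50 ± 0.08 log2 (95% interval 0.33 to 0.66, 1.41-fold). The 3 differences of the fenbuconazole arrays from DMSO all exceeded those of the 2,4-D arrays. Without replicate 1, 2 or 3 of every group the LRP8 difference was 0.44, 0.49 and 0.55, and without any single 10 µM array of either compound it lay between 0.44 and 0.53.

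The other LRP8 probe sets had the same direction for fenbuconazole against 2,4-D, 0.42 ± 0.17 on 228955_PM_at (interval 0.08 to 0.75) and 0.31 ± 0.14 on 205282_PM_at (0.03 to 0.59). For imazalil against 2,4-D, LRP8 differed by 0.35 ± 0.08 on 208433_PM_s_at (0.18 to 0.51). Under joint normalization the difference was 0.16, outside that interval. In the fit over all probe sets 1 of the 20, LRP8 on 208433_PM_s_at, passed the limma threshold for fenbuconazole against 2,4-D (0.0256% of all), and it did not pass when replicate 1, 2 or 3 was left out. For imazalil against 2,4-D 0 of 20 passed (0.0916% of all) and for imazalil against fenbuconazole 0 of 20 (0.0293%). Over the 3 pairs in this order 3, 5 and 3 had an unadjusted p under 0.05, against 6.15%, 7.09% and 9.98% of all probe sets. Because the genes were chosen by these values, nothing is read from these counts or from the LRP8 call.

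Fenbuconazole and imazalil both carry an azole ring, a triazole in fenbuconazole and an imidazole in imazalil. Between them the LRP8 difference at 10 µM (imazalil minus fenbuconazole) was -0.15 ± 0.08 on 208433_PM_s_at (interval -0.32 to 0.02). Under joint normalization that difference was -0.42, outside the interval. In that setting the DMSO copies, whose LRP8 means ranged from 6.03 to 6.34 between sets, were averaged. STARD4 differed by -0.05 ± 0.12 (-0.30 to 0.19). SCAP differed by -0.23 ± 0.09 (-0.41 to -0.06), with imazalil at -0.16 and fenbuconazole at 0.07.

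**Figure D4:**
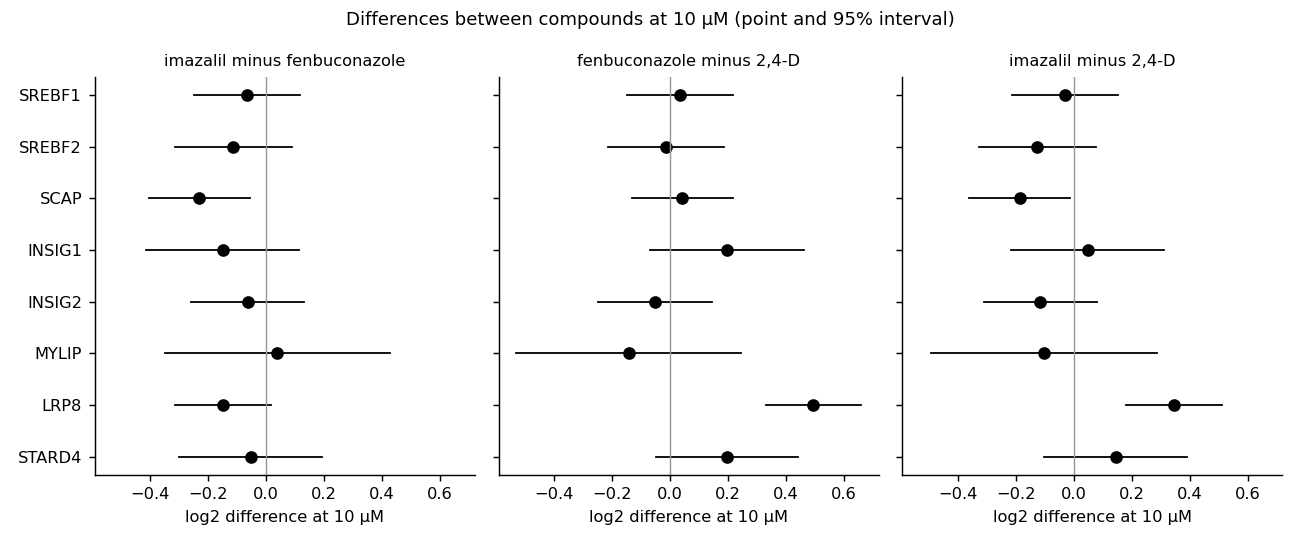
Difference between compounds at 10 µM for the leading probe set of each gene (log2, DMSO-centred, point with 95% interval), in 1 panel for each of the 3 pairs. LRP8 lies at 0.50 for fenbuconazole minus 2,4-D and at 0.35 for imazalil minus 2,4-D.

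The 3' minus 5' signal of the GAPDH control probe sets, a sign of RNA quality, was -0.12 ± 0.04 at 10 µM fenbuconazole and -0.09 ± 0.03 with DMSO (log2, SD, n = 3). The spread of the array values was 2.96 ± 0.06 and 3.01 ± 0.08 in the same groups. With the GAPDH signal as a covariate, a setting chosen after seeing the data, the LRP8 difference of fenbuconazole minus 2,4-D was 0.49, and with the array spread as a covariate it was also 0.49.

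Other genes of the pathway were taken from 6 lists, set beside all 19774 genes. Of all genes 49.7%, 48.6% and 50.3% lay above DMSO at 10 µM fenbuconazole, imazalil and 2,4-D, and 4.31%, 5.50% and 3.68% had an unadjusted p under 0.05. In limma 2, 15 and 0 of the 19774 passed the adjusted threshold. The lists were chosen with earlier results of these data known, so their counts are a description. Of the genes of cholesterol synthesis, classic targets of SREBP2, 18 of 18 measured lay above DMSO with fenbuconazole (median 0.25), and 0 passed in limma while 11 had an unadjusted p under 0.05. The highest were MVD, the mevalonate decarboxylase (6.22 ± 0.19 with fenbuconazole and 5.62 ± 0.06 with DMSO, difference 0.61 ± 0.12), HMGCS1, an early enzyme of the pathway (0.53 ± 0.10), and LSS, the lanosterol synthase (0.38 ± 0.08). With imazalil 15 of 18 lay above DMSO (median 0.06) and with 2,4-D 6 of 18 (median -0.06), with 0 passing in each and 1 and 0 at an unadjusted p under 0.05.

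Of 15 genes of fatty acid synthesis, tied to SREBP1, 12 lay above DMSO with fenbuconazole (median 0.13), 0 passed, and 5 had an unadjusted p under 0.05 upward and 1 downward. ACSS2, which makes acetyl-CoA from acetate, differed by 0.56 ± 0.10, PNPLA3, a lipid droplet enzyme, by 0.52 ± 0.11, and LPIN1, a phosphatidate phosphatase, by 0.48 ± 0.10. With imazalil 11 of 15 lay above DMSO (median 0.08) and with 2,4-D 3 of 15 (median -0.06), with 0 passing in each. The 1 gene at an unadjusted p under 0.05 was FADS2 with imazalil (-0.19 ± 0.09) and ELOVL6 with 2,4-D (-0.21 ± 0.10).

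The next list held the machinery that carries, cleaves and degrades the SREBPs. Of 19 measured genes, 6 lay above DMSO with fenbuconazole (median -0.04, range -0.17 to 0.11), 0 passed and 0 had an unadjusted p under 0.05. SEC24A and SEC23A, coat proteins of the vesicles that leave the endoplasmic reticulum, differed by -0.17 ± 0.16 and -0.14 ± 0.21, and PAQR3, a Golgi anchor for SCAP, by -0.14 ± 0.24. With imazalil PAQR3 differed by 0.55 ± 0.27 and was the 1 gene of the list at an unadjusted p under 0.05, with 13 of 19 above DMSO and 0 passing. With 2,4-D 10 of 19 lay above DMSO and 0 had an unadjusted p under 0.05.

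Beside LRP8, 16 other lipoprotein receptors and uptake genes were measured, of which 6 lay above DMSO with fenbuconazole (median -0.03, range -0.17 to 0.15), with 0 passing and 0 at an unadjusted p under 0.05. SCARB1, the HDL receptor, differed by 0.15 ± 0.09, LRP12 by 0.14 ± 0.15 and LRP1, a large endocytic receptor, by -0.17 ± 0.14. LRP12 was dim, at 3.44 with DMSO. With imazalil LRP1 differed by -0.41 ± 0.15. The 2 genes of this list with an unadjusted p under 0.05 with imazalil were LRP1 and the endocytic adaptor DAB2 (-0.28 ± 0.09), both below DMSO.

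Among 10 genes of LXR and sterol export, 5 lay above DMSO with fenbuconazole (median 0.01), 0 passed and 0 had an unadjusted p under 0.05. ABCA1, the cholesterol exporter, differed by -0.15 ± 0.12, the nuclear receptor RXRA by 0.12 ± 0.09 and APOE by 0.06 ± 0.07. Among 17 other genes of sterol transport between membranes, the process of STARD4, 12 lay above DMSO (median 0.05), 0 passed and 0 had an unadjusted p under 0.05. STAR differed by 0.21 ± 0.16, GRAMD1B by 0.18 ± 0.19 and TMEM97 by 0.15 ± 0.09, where STARD4 differed by 0.30. With DMSO GRAMD1B read 2.46, below the array medians of 2.97 to 3.05 in that set. STAR read 3.495, not far above them, so the sizes of these 2 changes are uncertain. With imazalil SOAT1, which esterifies cholesterol, was the 1 gene of this list at an unadjusted p under 0.05, at 0.52 ± 0.25 where STARD4 differed by 0.24, and the list's median was 0.02 with 0 passing. LPCAT3, of the LXR list, was the 1 such gene there (0.22 ± 0.10 with imazalil). The genes SOAT1, LPCAT3, DAB2, FADS2 and ELOVL6 were named after their values were seen.

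**Figure D5:**
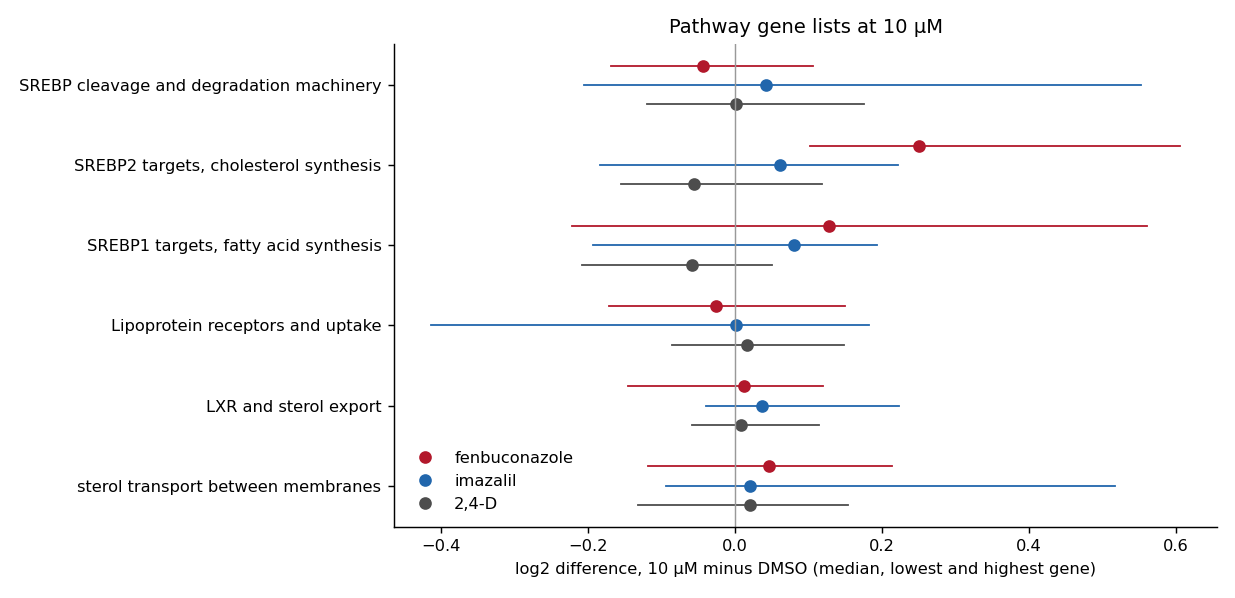
Log2 difference of 10 µM minus DMSO in 6 lists of pathway genes, with a point at the list's median and a line from its lowest to its highest gene, for the 3 compounds. With fenbuconazole the cholesterol synthesis list has its lowest gene at 0.10 and its median at 0.25, and the other lists cross 0.

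The genes whose dose means were most like those of LRP8, by Pearson's r over the 27 dose means among 19773 other genes, were TRIB3 (0.815), ASNS (0.78), CYP1A1 (0.763), LSS (0.761) and LONRF1 (0.756). For STARD4 they were CYB5A (0.783), ERG28 (0.781), SLC25A33 (0.741), ABCC10 (0.736) and MTO1 (0.728). The dose means of a compound share its normalization and were centred on its own treated arrays, so these values are a description without a test.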

How the data were processed

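Expression was measured on Affymetrix HT HG-U133+ PM arrays. Per the labels, the authors ran RMA separately for each compound, and they deposited log2 values in 90 columns from 84 different arrays, 30 per set. RMA and Partek are the tools in the submitters' processing notes, and their versions are not given in the sources used here. Copies of 1 DMSO array agreed more closely between sets (lowest r = 0.99861) than different DMSO arrays did (highest r = 0.996113). Of 54715 probe sets, 102 controls were left out. Fits were made in R 4.3.3 with limma 3.58.1 (lmFit and eBayes, two-sided, Benjamini-Hochberg over all probe sets, threshold 0.05), with 1 mean per group in each set, slopes on log10 dose over 27 treated columns, and compound differences on 81 treated columns after subtraction of each set's DMSO mean. The fits were tested on simulated data. The number of arrays, 3 per group, limits the precision. All probe sets of the 8 genes were named, up to 3 genes per list with the largest distance from DMSO at 10 µM fenbuconazole, and 5 genes most like each of LRP8 and STARD4. Members and lists were chosen with earlier results of these data known. Some genes of the lists are not analysed here. Alternatives covered probe set choice, dim probe sets, variance trend, joint normalization, replicate number, array spread, RNA quality and leaving out arrays.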

Additional observations from a re-analysis of the deposited data

Results flagged for a closer look

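LRP8 on 208433_PM_s_at is listed because its response at 10 µM differed between compounds. It stood 0.42 above DMSO with fenbuconazole and at -0.08 with 2,4-D, a difference of 0.495 log2 (SE 0.083, 95% interval 0.33 to 0.66, n = 3 arrays per group), with all 3 fenbuconazole arrays above all 3 2,4-D arrays relative to their own DMSO mean. The difference is made of the values by which LRP8 was chosen, so it is a description, and independent arrays were not tested. Leaving out replicate 1, 2 or 3 of every group gave 0.44, 0.49 and 0.55.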

How the results depend on the processing

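Of the alternative differences from DMSO, 484 moved by less than the spread between replicates and 18 by more. Fewer probe sets, another variance model, the 10 µM and DMSO columns alone or a replicate block cannot move a difference. Part of the 484 was therefore fixed in advance. Changes of sign were not counted for the differences from DMSO, and some small ones did change sign. SREBF1 on 202308_PM_at ranged from -0.13 to 0.13 and SCAP from -0.04 to 0.17, both at 10 µM fenbuconazole. Among the alternative slopes and differences between compounds that were followed, 0 changed sign. Fewer probe sets, another variance model or a replicate block could not change a sign there either. All 64 alternative slopes kept their side of the threshold. Of the alternative differences between compounds, 178 kept it, 3 lost the call and 4 gained it, and these 7 were all of LRP8 on 208433_PM_s_at. Under joint normalization 1 member probe set passed for fenbuconazole against DMSO (LRP8, 0.53) and 1 for imazalil against fenbuconazole (LRP8, -0.42), against 0 in each as reported. For imazalil against 2,4-D the count was 1 with 1 probe set per gene, 1 with dim probe sets left out and 1 with the array spread as a covariate, against 0. For fenbuconazole against 2,4-D the count was 1 as reported and ranged from 0 to 1 when 1 replicate number or array was left out. The cause was not tested, except that the joint setting averages the DMSO copies by construction. The calls at 10 µM rest on the values by which the genes were chosen, so nothing is read from them.

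The deviations of same-numbered 10 µM and DMSO arrays correlated at -0.12 to 0.37 and over 0.1 in 6 of 9 cases, in 3 of 3 with 2,4-D but not in all with fenbuconazole or imazalil. The replicate number goes with a plate code and a block of array codes in the labels, whose meaning is not stated, and whether it pairs the cultures could not be settled. With a replicate block the counts of members past the threshold did not change. The LRP8 difference of fenbuconazole minus 2,4-D stayed at 0.50 by construction, because each group holds replicates 1, 2 and 3. Signal limits INSIG1, MYLIP 228097_PM_at and, in the lists, GRAMD1B, which lay near or below the array medians.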
